A study of Mus musculus with 4 samples.

Results

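The clustered histone genes encode the linker histone H1 and the core histones H2A, H2B, H3 and H4, and they lie in groups in the mouse genome. They were taken as the rows whose symbol starts with Hist1h, Hist2h, Hist3h or Hist4h and that stood above 0 RPKM in at least 2 of the 4 libraries. RPKM is a read count scaled to the length of the gene and to all mapped reads of the library. Of 68 rows with such a symbol 61 met the rule, out of 23240 rows in the table. They comprise 5 H1, 13 H2A, 18 H2B, 12 H3 and 13 H4 genes, and 48 belong to the Hist1 cluster, 9 to Hist2, 3 to Hist3 and 1 to Hist4. Hist3h2bb-ps is named as a pseudogene. Members just inside the rule were Hist1h2ab, Hist1h2ah, Hist1h2ai and Hist1h4j, each above 0 in 2 libraries. Just outside it were Hist1h2ad, Hist1h2an and Hist2h2ab, each above 0 in 1 library, and the remaining 4 rows were listed at 0 throughout.

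RNA was sequenced from mouse bone marrow cells of leukaemic mice, labelled RUNX1-FLT3ITD_AML and sorted for GFP and BFP and against the myeloid surface proteins CD11b and Gr1. The 4 libraries were 4OHT and EtOH cultures of Runx1 delta/delta cells, numbered replicate 1, and of Runx1 delta/+ cells, numbered replicate 2, both B6 mice. All cultures ran for 22 h in SFEM medium with FLT3L, SCF, IL3 and IL11, which are cytokines of early blood cells, and received 200 nM 4OHT (4-hydroxytamoxifen, an oestrogen receptor ligand) or as much of its solvent, ethanol. The labels name neither the protein that 4OHT acts on nor the ages of the mice, and nothing says whether libraries came from separate cultures or animals. With 1 library per genotype and treatment, the genotype cannot be told apart from the leukaemia it was read in or from the replicate number.

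Most clustered histone genes are switched on together in S phase, when new DNA must be packed into nucleosomes. Their mRNAs have no poly(A) tail. They end just after a short stem-loop in the RNA, which is bound by the stem-loop binding protein SLBP and cut with the help of the U7 small nuclear RNA. Some of these genes also give longer mRNAs with a poly(A) tail, formed at a signal beyond the stem-loop, and such forms have been described in differentiating and non-dividing cells. A library made from poly(A) RNA therefore samples these genes unevenly, and which of them read as abundant depends in part on the form of the 3' end. Histone genes placed outside the clusters, such as H2afz, H3f3a and H3f3b, encode replacement histones whose mRNAs have poly(A) tails throughout the cell cycle.

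The stem-loop is shown here because the form of the mRNA's end bears on whether a poly(A) library holds it. The search was for 16 bases, GGNNNNTNTNNNNNCC, of which the last 6 pair with the first 6, read on the RNA strand of GENCODE vM21 transcripts (GRCm38). It was found in 43 of the 61 genes and in 0.518% of 21810 other protein-coding genes. Several genes without a match, such as Hist1h2ak (393 bases) and Hist1h4k (312 bases), have annotated transcripts no longer than their coding length. For these the search could not find a stem-loop beyond the coding part, so no match does not mean no stem-loop. In the lines that follow capitals mark the stem-loop, in lower case are up to 5 bases on each side, and T stands for U; the genes are those that later passed a test and hold a match, with the abundant Hist1h1c and Hist3h2a beside them.
Hist1h1c: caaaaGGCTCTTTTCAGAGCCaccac
Hist2h2aa1: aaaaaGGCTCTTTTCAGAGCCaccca
Hist3h2a: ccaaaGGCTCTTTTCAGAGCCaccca
Hist1h2bj: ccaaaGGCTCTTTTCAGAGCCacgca
Hist1h3b: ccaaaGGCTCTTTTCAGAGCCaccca
Hist1h4i: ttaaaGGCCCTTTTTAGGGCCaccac
Hist1h4d: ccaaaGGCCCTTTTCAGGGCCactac
Hist1h4b: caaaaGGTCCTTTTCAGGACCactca
Hist2h4: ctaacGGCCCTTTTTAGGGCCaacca
The stem began GGCTCT in all 31 matches outside H4. In the 12 H4 matches it began GGCCCT in 10 genes and GGTCCT in 2, Hist1h4b and Hist1h4j. The annotated transcript of Hist1h1c ran on for 840 bases after the stem-loop, that of Hist3h2a for 1643, that of Hist2h4 for 1257 and that of Hist1h4d for 770, and each held a poly(A) signal (AATAAA or ATTAAA) in that stretch. The transcripts of Hist1h2bj and Hist1h4b ended 23 and 28 bases after it, with no such signal. In the annotated transcripts of Hist2h2be and Hist1h2bc the search found no stem-loop; both genes are known for poly(A) forms.

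Clustered histone mRNAs were rare in all 4 libraries. Summed over the 61 genes they came to 77.9 RPKM in the 4OHT library and 120.1 RPKM in the EtOH library for Runx1 delta/delta, against 52.5 RPKM and 68.4 RPKM for Runx1 delta/+. That is between 0.0128% and 0.0246% of all summed RPKM. The 8 replacement and other separately placed histone genes in use (H2afz, H2afv, H2afy, H2afj, H3f3a, H3f3b, H1f0 and Cenpa) summed to 2054 and 1830 RPKM in 4OHT, against 1975 and 1696 RPKM in EtOH, with Runx1 delta/delta given first in each pair. They stood 26.4 and 34.9 times above the clustered sum in 4OHT and 16.4 and 24.8 times above it in EtOH. H3f3a and H3f3b, which encode the replacement histone H3.3, averaged 625 and 636 RPKM, while all 12 clustered H3 genes together reached at most 13.9 RPKM. All 115 rows of small nucleolar and Cajal body RNAs, a kind of RNA without a poly(A) tail, were listed at 0. The kit used for each library (not given in the sources used here) is one of 2 named in the labels.

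Few of the genes carried the signal. Of 10213 reads recovered for the 61 genes, 68.9% fell on 6 genes: Hist1h1c (3134 reads), Hist2h2be (1888), Hist1h4i (723), Hist3h2a (485), Hist1h2bc (476) and Hist2h2aa1 (328). Another 31 genes had under 50 reads over the 4 libraries together. Per length, 3 genes averaged at least 5 RPKM: Hist1h1c with 14.0, Hist1h4i with 9.51 and Hist2h2be with 5.07 RPKM. The lengths that the RPKM values imply show the same unevenness. The 15 genes counted over at least 1000 bases held 64.6% of the reads, and the 24 genes whose length equals the coding length held 11.6%, as the plot of reads against length shows. A long gene takes more reads at the same level, so these 2 shares describe reads and not levels.

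**Figure D1:**
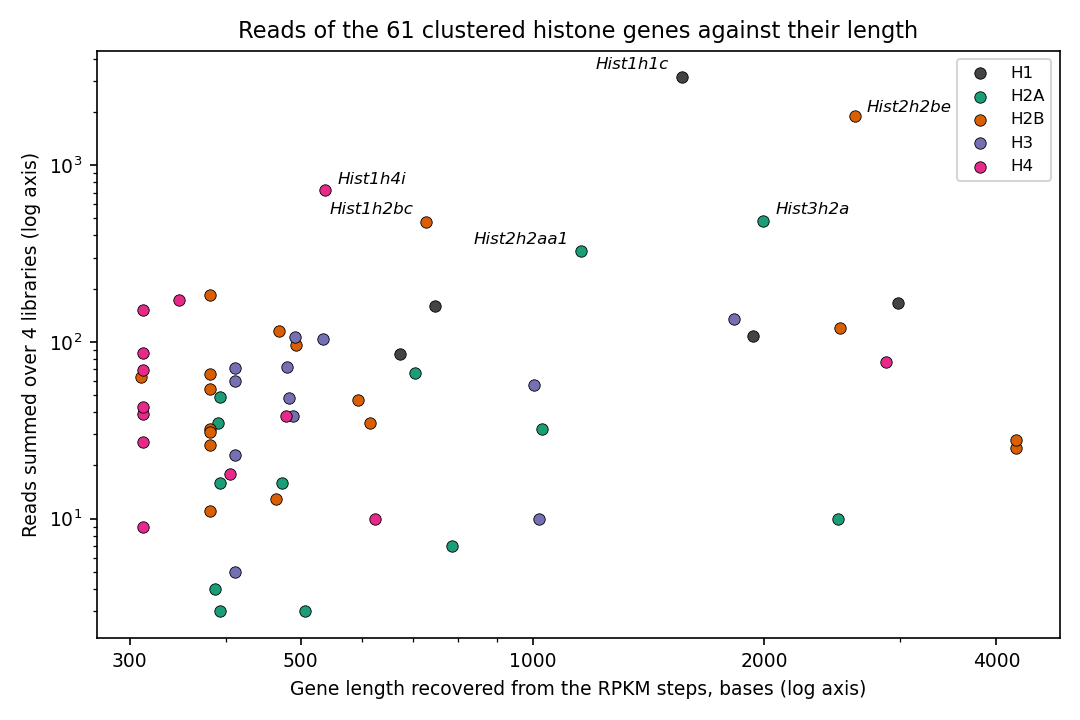
Reads summed over the 4 libraries (vertical log axis) against the gene length in bases recovered from the RPKM steps (horizontal log axis), 1 point per clustered histone gene, coloured by class. Hist1h1c and Hist2h2be stand highest with 3134 and 1888 reads, and the genes toward the left edge, such as the H4 genes counted over a coding length of 312 bases, lie well below them.

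Of 10 members listed from general knowledge as also giving poly(A) transcripts, 5 averaged at least 1 RPKM: Hist1h1c, Hist2h2be, Hist1h2bc, Hist2h2aa1 and Hist3h2a. The other 5 stayed below it, between 0.0280 RPKM for Hist1h2ac and 0.564 RPKM for Hist1h4h on average. Hist1h4h had 0.285 and 0.265 RPKM in 4OHT, against 1.27 and 0.434 RPKM in EtOH, and Hist1h2bg had 0.443 and 0.371 RPKM in 4OHT, against 0.470 and 0.289 RPKM in EtOH. Hist1h2be had 0.336 and 0.303 RPKM in 4OHT, against 0.495 and 0.189 RPKM in EtOH. Hist2h2aa2 and Hist1h2ac were listed at no more than 0.110 and 0.0464 RPKM in any library. All 50-base windows of the Hist2h2aa2 transcript (100%) also occur in other genes, so its own level cannot be read from this value. The 10 genes together held 29.0% and 46.0% of the clustered RPKM in 4OHT and 28.6% and 49.5% in EtOH, Runx1 delta/delta first. Of the testis-type genes Hist1h1t, Hist1h2aa and Hist1h2ba, all 3 were listed at 0 in every library.

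The H1 genes, which bind the DNA between nucleosomes, were led by Hist1h1c, the gene of H1.2. It had 10.5 and 12.8 RPKM in 4OHT, against 15.5 and 17.3 RPKM in EtOH. Both 4OHT libraries lay below both EtOH libraries, and the genotypes overlapped. Hist1h1a followed with 1.28 and 1.12 RPKM in 4OHT, against 1.94 and 1.67 RPKM in EtOH. Hist1h1b, the gene of H1.5, had 0.405 and 0.566 RPKM in 4OHT, against 1.94 and 0.706 RPKM in EtOH. Hist1h1e had 0.240 and 0.276 RPKM in 4OHT, against 0.809 and 0.246 RPKM in EtOH, and Hist1h1d averaged 0.390 RPKM. Each pair of values here and in the next paragraphs has Runx1 delta/delta first.

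Among the H2A genes only Hist2h2aa1 and Hist3h2a averaged at least 1 RPKM. Hist2h2aa1 had 2.31 and 0.0878 RPKM in 4OHT, against 4.68 and 1.001 RPKM in EtOH, which are 98 and 4 reads against 187 and 39. Both Runx1 delta/delta libraries were above both Runx1 delta/+ libraries. The reads of Hist2h2aa1 are uncertain, since 89.4% of the 50-base windows of its transcript also occur in other genes. Hist3h2a had 1.11 and 1.11 RPKM in 4OHT, against 2.70 and 1.95 RPKM in EtOH, with the treatments apart and the genotypes overlapping. Next came Hist1h2ak, with 1.25 and 0.0646 RPKM in 4OHT, against 2.21 RPKM and a listed 0 in EtOH, and Hist1h2ae, with 1.01 and 0.541 RPKM in 4OHT, against 0.862 and 0.211 RPKM in EtOH. Both of these, too, were higher in the Runx1 delta/delta libraries than in the Runx1 delta/+ libraries.

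The H2B class was led by 3 genes that behaved differently from one another. Hist2h2be had 3.37 and 3.91 RPKM in 4OHT, against 5.73 and 7.27 RPKM in EtOH, and was lower in both 4OHT libraries. Hist1h2bc had 4.11 and 5.26 RPKM in 4OHT, against 3.34 and 5.34 RPKM in EtOH. It is the only one of the 61 genes with both Runx1 delta/delta libraries below both Runx1 delta/+ libraries. Hist1h2bj had 4.65 and 4.33 RPKM in 4OHT, against 2.12 and 2.10 RPKM in EtOH. Both 4OHT libraries stood clearly above both EtOH libraries, and the genotypes were close to each other in each treatment. The reads of Hist1h2bj are uncertain, since 59.4% of the windows of its transcript also occur in other genes. That share covers the whole annotated transcript, and the share within the counted bases was not computed. Hist1h2bb had 2.04 and 1.95 RPKM in 4OHT, against 1.73 and 1.08 RPKM in EtOH.

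The H3 genes were low throughout, with Hist1h3g highest on average at 1.49 RPKM. Hist1h3g had 2.16 and 1.13 RPKM in 4OHT, against 2.41 and 0.241 RPKM in EtOH. Hist1h3b had 0.530 and 0.185 RPKM in 4OHT, against 2.39 and 1.88 RPKM in EtOH, which are 8 and 3 reads against 34 and 26. Both 4OHT libraries were well below both EtOH libraries. The reads of Hist1h3b are uncertain, since 60.4% of the windows of its whole annotated transcript also occur in other genes. Hist1h3a had 1.58 and 1.09 RPKM in 4OHT, against 1.52 and 1.22 RPKM in EtOH, and hardly moved with treatment. Hist1h3c had 1.76 and 0.687 RPKM in 4OHT, against 0.602 and 1.11 RPKM in EtOH, so its 2 pairs went opposite ways.

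The H4 genes all encode the same protein, and Hist1h4i was the most abundant of them. It had 10.1 and 3.31 RPKM in 4OHT, against 16.2 and 8.45 RPKM in EtOH, which are 200 and 70 reads against 300 and 153. Hist2h4 had 2.82 and 0.583 RPKM in 4OHT, against 10.2 and 0.426 RPKM in EtOH. Hist1h4d had 3.75 and 0.732 RPKM in 4OHT, against 7.14 and 2.19 RPKM in EtOH. For all 3 genes both Runx1 delta/delta libraries lay above both Runx1 delta/+ libraries, whatever the treatment. Hist1h4b had 2.88 and 0.0813 RPKM in 4OHT, against 4.45 and 0.475 RPKM in EtOH, which are 33 and 1 reads against 48 and 5. Hist1h4c had 2.88 and 0.732 RPKM in 4OHT, against 1.76 and 0.761 RPKM in EtOH. H4 genes are near copies of one another in parts: the share of 50-base windows that also occur in other genes was 28.9% for Hist1h4i, 10.2% for Hist1h4d, 54.6% for Hist1h4b, 19.6% for Hist1h4c and 1.01% for Hist2h4. These shares cover whole annotated transcripts, of 1138 bases for Hist1h4d, 820 for Hist1h4c and 1630 for Hist2h4. The lengths recovered from the RPKM values were 312, 312 and 348 bases, and the share within the counted bases was not computed. The rule for reads with several matches (not given in the sources used here) can split them among H4 genes, so the single levels are uncertain.

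**Figure D2:**
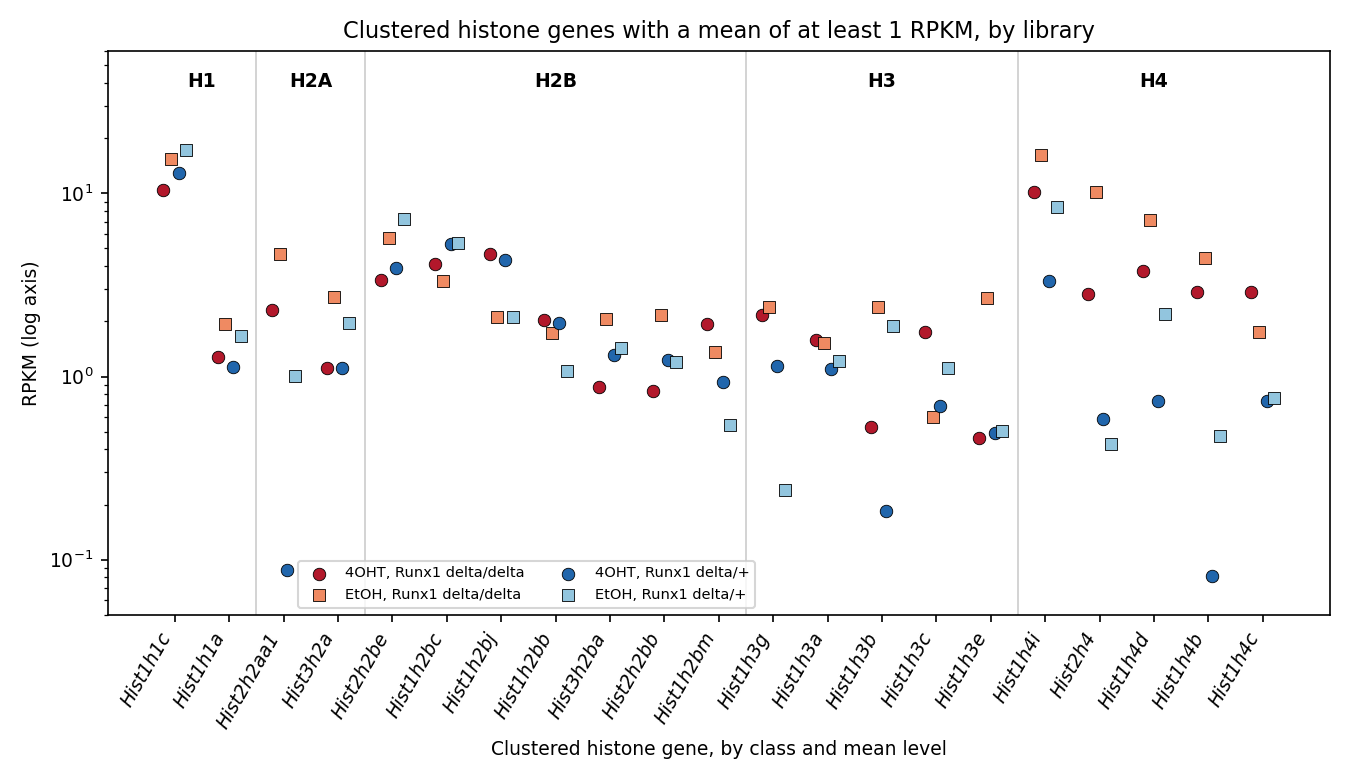
RPKM (vertical log axis) of the 21 clustered histone genes averaging 1 RPKM or more, by class and mean level from left to right, 1 point per library. For the H4 genes the red and orange points of Runx1 delta/delta lie above the blue points of Runx1 delta/+ (Hist1h4i at 10.1 and 16.2 against 3.31 and 8.45 RPKM), while for Hist1h2bj both 4OHT circles (4.65 and 4.33 RPKM) lie above both EtOH squares (2.12 and 2.10 RPKM).

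The first comparison asked what 22 h of 4OHT changed. Hist1h3b, Hist1h4d, Hist1h4i, Hist2h2aa1 and Hist2h2be fell with 4OHT, and Hist1h2bj rose. These are 6 of the 21 genes that were tested, having a mean of 1 RPKM or more, and 9 of the 21 had an unadjusted p under 0.05. Over all 9595 genes tested 32.4% were called, 22.2% as higher and 10.2% as lower. The 5 lower calls stand above and the 1 higher call below the share over all genes. The median log2 difference, 4OHT minus EtOH, was -0.39 over the 21 genes and 0.16 over all genes tested. Without regard to a test, 15 of the 61 members had both 4OHT libraries below both EtOH libraries, where 15.6% of genes above 0 RPKM in at least 2 libraries did, and 4 had both above, where 35.2% of such genes did. Among the 53 members above 0 in all 4 libraries 13 lay below and 4 above, against 16.6% and 36.5% of such genes, and among the 32 of these with a mean under 1 RPKM 6 lay below and 2 above, against 15.7% and 29.5% of such genes. In bulk RNA, fewer cells of a type and less RNA per cell cannot be told apart. The tests used limma on log2(RPKM + 1) with genotype as a term and Benjamini-Hochberg adjustment over all genes tested, and log2 differences on that scale are smaller than the true ones for low genes.

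Hist1h3b fell most among the called members, by 1.21 on the log2 scale (SE 0.19, adjusted p = 0.0101 by limma), lower in both pairs. It was under 1 RPKM in both 4OHT libraries and reached the mean of 1 RPKM through its EtOH libraries. Its reads are uncertain, given the shared windows named above. With 3 reads in the 4OHT library of Runx1 delta/+, its ratio there was 0.0987 of the EtOH level (95% counting interval 0.0191 to 0.322). Hist1h4i fell by 0.88 (SE 0.18, limma adjusted p = 0.0186), to 0.628 and 0.391 of its EtOH level for Runx1 delta/delta and Runx1 delta/+. Hist1h4d fell by 0.83 (SE 0.16, limma adjusted p = 0.0171) and Hist2h2aa1 by 0.83 (SE 0.18, limma adjusted p = 0.0225), both lower in both pairs. Hist2h2be, the H2B gene with the most reads, fell by 0.69 (SE 0.15, limma adjusted p = 0.0227), to 0.588 and 0.537 of its EtOH level.

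Hist1h2bj was the exception in direction, though its reads are uncertain, given the shared windows named above. It was 2.19 and 2.06 times as high with 4OHT as with EtOH (95% counting intervals 1.38 to 3.54 and 1.30 to 3.36), a log2 difference of 0.82 (SE 0.16, limma adjusted p = 0.0167). Its neighbours in level within H2B did not pass the test: Hist1h2bc had a log2 difference of 0.11 (SE 0.16, limma adjusted p = 0.618) and Hist1h2bb of 0.33 (SE 0.19, limma adjusted p = 0.235). Hist3h2a and Hist1h1c missed the threshold by little, with log2 differences of -0.65 (SE 0.19, limma adjusted p = 0.0505) and -0.46 (SE 0.14, limma adjusted p = 0.0543), both lower in both pairs. Both passed it, as lower, when the libraries were scaled by the median ratio (adjusted p = 0.0208 for Hist3h2a and 0.0133 for Hist1h1c). In the authors' deposited table, where Kal's Z-test compares 4OHT with EtOH within each replicate number, 0 of the 61 genes had p under 0.05 in either replicate, before or after correction, against 924 and 445 genes of the whole table after it.

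The direction of each pair is plotted for the 21 tested genes. Of these, 14 had a log2 difference below 0 and 7 above. By class the medians were -0.40 for H1 (2 genes), -0.74 for H2A (2), 0.11 for H2B (7), -0.02 for H3 (5) and -0.70 for H4 (5). Summed by class, H4 in 4OHT was at 0.569 and 0.470 of its EtOH level in Runx1 delta/delta and Runx1 delta/+, H2A at 0.570 and 0.611, H1 at 0.617 and 0.746 and H3 at 0.654 and 0.721. H2B, which joins the called rise of Hist1h2bj to the called fall of Hist2h2be, was at 0.863 and 1.02. Class sums were not tested, since 2 libraries against 2 cannot reach an exact two-sided p below 0.333.

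**Figure D3:**
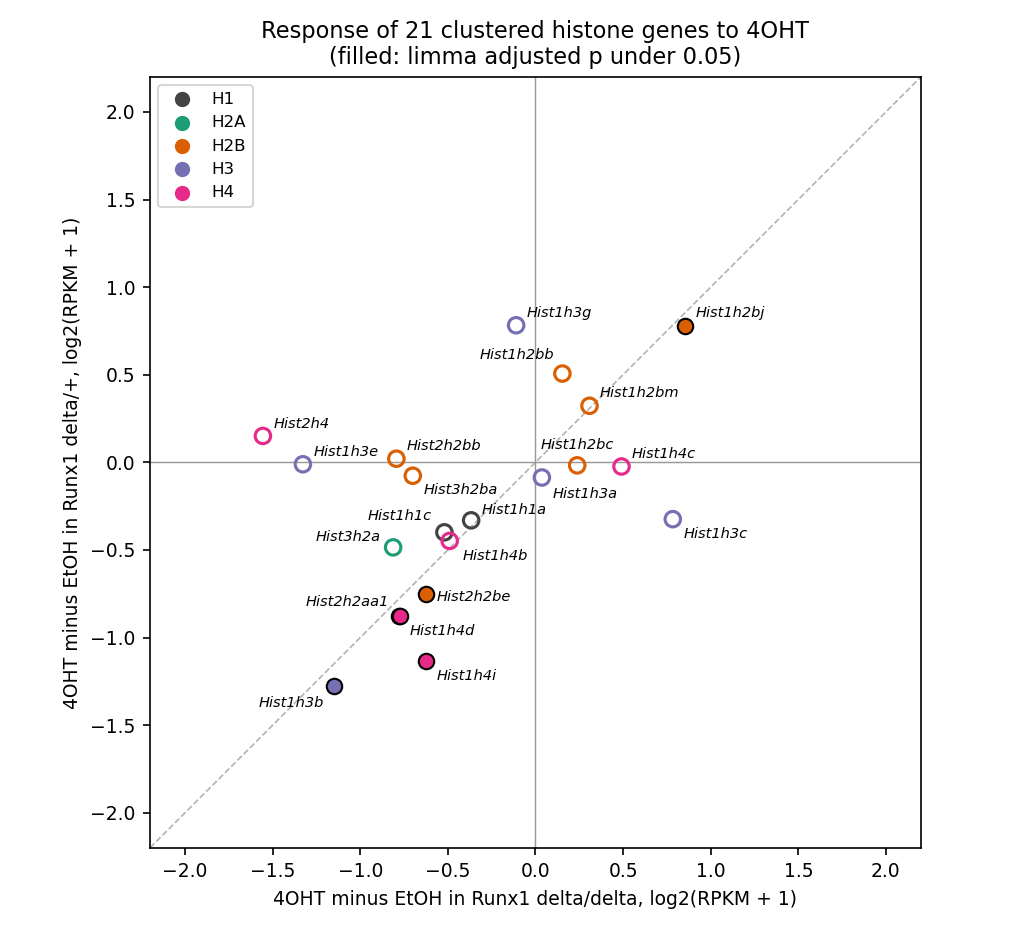
Difference between 4OHT and EtOH on the log2(RPKM + 1) scale for Runx1 delta/delta (horizontal) and Runx1 delta/+ (vertical) for the 21 tested genes, coloured by class and filled where limma gave an adjusted p under 0.05 for 4OHT against EtOH. Of the 6 filled points 5 lie at the lower left and Hist1h2bj at the upper right (0.85 and 0.78), while Hist2h4 lies far to the left of the vertical axis (-1.56) but just above the horizontal one (0.15).

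The second comparison set Runx1 delta/delta against Runx1 delta/+. Hist1h4b, Hist1h4d, Hist1h4i, Hist2h4 and Hist2h2aa1 were higher in the Runx1 delta/delta leukaemia, so that 4 of the 5 H4 genes tested were called and 8 H4 genes were too low to test. Hist1h4b and Hist2h4 were under 1 RPKM in both Runx1 delta/+ libraries, and Hist2h2aa1 was at 0.0878 and 1.001 RPKM there. These genes reached the mean of 1 RPKM through the Runx1 delta/delta libraries, so being tested at all depended in part on the difference. Of the 21 tested genes 5 were called higher in Runx1 delta/delta and 0 lower, by limma; over all genes tested 11.6% were called, 4.68% as higher and 6.91% as lower. At an unadjusted p under 0.05 there were 9 of the 21 genes. The median log2 difference, Runx1 delta/delta minus Runx1 delta/+, was 0.24 over the 21 genes and -0.03 over all genes tested, and 18 of the 21 differences were above 0.

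Hist2h4 had the largest of the called differences, 2.12 on the log2 scale (SE 0.40, limma adjusted p = 0.0366), and was 4.83 and 24.0 times as high in Runx1 delta/delta in 4OHT and in EtOH. These ratios rest on 36 and 123 reads in Runx1 delta/delta against 8 and 5 in Runx1 delta/+. Hist1h4b was higher by 1.86 (SE 0.18, limma adjusted p = 0.0132), resting on 33 and 48 reads in Runx1 delta/delta against 1 and 5 in Runx1 delta/+. Hist2h2aa1 was higher by 1.55 (SE 0.18, limma adjusted p = 0.0176), Hist1h4d by 1.40 (SE 0.16, limma adjusted p = 0.0176) and Hist1h4i by 1.12 (SE 0.18, limma adjusted p = 0.029), each in both treatments. Hist1h4c, with a log2 difference of 0.91 (SE 0.21, limma adjusted p = 0.0533), and Hist1h3g, with 1.01 (SE 0.26, limma adjusted p = 0.0666), missed the threshold and passed it with median-ratio scaling (adjusted p = 0.0213 and 0.0298). Hist1h1c, Hist2h2be and Hist1h2bc had log2 differences of -0.21, -0.23 and -0.42 (limma adjusted p = 0.337, 0.327 and 0.138). When each factor was fitted without the other, limma called 0 of the 21 genes in either comparison (3 for 4OHT and 5 for genotype at an unadjusted p under 0.05).

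The libraries were also compared gene by gene without a test. Of the 61 members 31 had both Runx1 delta/delta libraries above both Runx1 delta/+ libraries, where 17.9% of genes above 0 RPKM in at least 2 libraries did, and 1 had both below, where 21.2% did. The 4 members seen in 2 libraries only were all seen in the Runx1 delta/delta pair, and their place in this count follows from that. Among the 53 members above 0 in all 4 libraries 26 lay above, against 16.0% of such genes, and 1 below, against 22.7%. Among the 32 of these with a mean under 1 RPKM, which were too low to test, 17 lay above, against 12.4% of such genes, and 0 below, against 27.3%, and the others overlapped. Over all 61 members, scaling the libraries by the median ratio gave 31 above and 1 below, and leaving globins out of the scaling gave 28 above and 2 below. Many of these genes have a handful of reads, and related genes can share reads, so the 31 are not 31 separate observations.

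By class the H4 sum was 26.8 RPKM in 4OHT and 47.1 RPKM in EtOH of Runx1 delta/delta, against 6.85 RPKM in 4OHT and 14.6 RPKM in EtOH of Runx1 delta/+, or 3.92 and 3.23 times as much. Without Hist1h4i the ratios were 4.71 and 5.07, and without Hist2h4 they were 3.83 and 2.61. The H2A sum was 7.69 and 13.5 RPKM in Runx1 delta/delta, against 2.44 and 3.99 RPKM in Runx1 delta/+, or 3.16 and 3.38 times as much. H3 came to 1.72 and 1.90 times as much, with sums of 9.06 and 13.9 RPKM in Runx1 delta/delta, against 5.25 and 7.29 RPKM in Runx1 delta/+. H1, at 12.8 and 20.7 RPKM against 15.1 and 20.2 RPKM, and H2B, at 21.5 and 24.9 RPKM against 22.9 and 22.3 RPKM, had ratios of 0.850 and 1.03 and of 0.941 and 1.12.

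**Figure D4:**
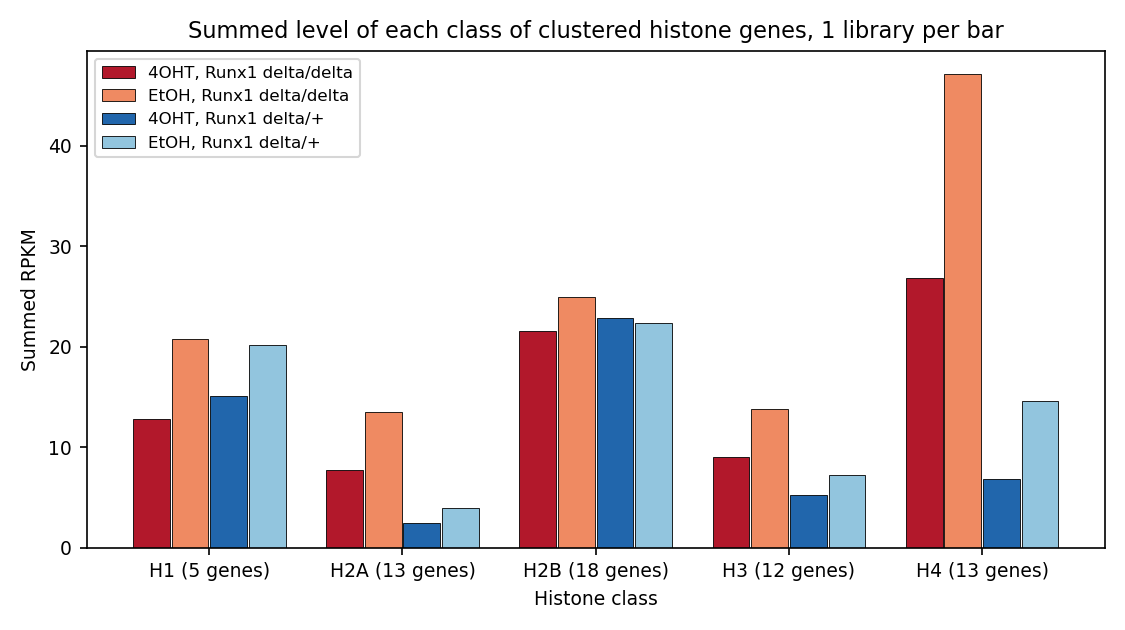
Summed RPKM (vertical axis, from 0) of each class of clustered histone genes, 1 bar per library. In H4 the Runx1 delta/delta bars (26.8 RPKM in 4OHT and 47.1 RPKM in EtOH) stand above those of Runx1 delta/+ (6.85 and 14.6 RPKM), while the 4 bars of H2B lie between 21.5 and 24.9 RPKM.

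Split by the list of poly(A) forms, the ratios between genotypes were apart. The 10 listed genes summed to 22.6 and 34.3 RPKM in 4OHT and EtOH of Runx1 delta/delta, against 24.2 and 33.8 RPKM in Runx1 delta/+, ratios of 0.934 and 1.01. The other 51 genes summed to 55.3 and 85.8 RPKM, against 28.3 and 34.5 RPKM, ratios of 1.95 and 2.48. Much of the second sum is H4: without H4 its 39 remaining genes summed to 28.8 and 39.98 RPKM, against 21.7 and 20.4 RPKM, ratios of 1.32 and 1.96. Hist2h2aa1, which is on the list, went the other way than the list's sum, at 26.3 and 4.67 times its Runx1 delta/+ level in 4OHT and EtOH, and without it the listed genes had ratios of 0.841 and 0.903. With 4OHT both sums were lower than with EtOH: the listed genes stood at 0.658 and 0.714 of their EtOH level in Runx1 delta/delta and Runx1 delta/+, and the other genes at 0.645 and 0.820. These sums carry no test, and the part of the library kit in the difference was not tested.

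The promoters of 3 called genes are shown, as the 250 bases before the start in the RefSeq table for GRCm38.p6. Hist1h2bj lies on the plus strand at chr13:22042948-22043197, Hist1h3b on the plus strand at chr13:23752095-23752344 and Hist1h4i on the minus strand at chr13:22041363-22041612. Capitals mark CCAAT and TATAAA on either strand (so ATTGG is CCAAT read on the other strand).
Hist1h2bj: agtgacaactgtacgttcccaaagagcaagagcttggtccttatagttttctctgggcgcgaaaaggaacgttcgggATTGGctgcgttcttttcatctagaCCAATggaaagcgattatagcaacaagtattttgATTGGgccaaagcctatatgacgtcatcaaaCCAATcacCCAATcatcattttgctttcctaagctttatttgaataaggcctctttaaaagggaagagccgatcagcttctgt
Hist1h3b: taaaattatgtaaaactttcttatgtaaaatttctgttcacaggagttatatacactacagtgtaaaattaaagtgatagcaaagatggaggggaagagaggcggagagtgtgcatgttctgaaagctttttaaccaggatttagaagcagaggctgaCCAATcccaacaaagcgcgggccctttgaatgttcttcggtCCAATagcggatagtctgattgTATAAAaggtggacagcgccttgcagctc
Hist1h4i: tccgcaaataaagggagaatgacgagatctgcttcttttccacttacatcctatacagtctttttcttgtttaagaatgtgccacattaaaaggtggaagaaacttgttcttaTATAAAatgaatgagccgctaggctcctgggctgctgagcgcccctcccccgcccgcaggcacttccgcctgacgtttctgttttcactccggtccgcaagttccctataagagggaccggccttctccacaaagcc
Counted in the 300-base windows of the table (50 bases after the start included), CCAAT occurred in all 43 H1, H2A, H2B and H3 promoters available and in 3 of 12 H4 promoters, against 37.4% of 32851 promoters. In the stretches shown Hist1h2bj held 5 copies, Hist1h3b 2 and Hist1h4i 0. Copies were counted for these 3 genes only, and the part of the motif in the response to 4OHT was not tested. The octamer ATTTGCAT, known from H2B promoters and searched on both strands, occurred in 6 of 15 H2B and 6 of 13 H2A promoters and in none of the H1, H3 and H4 promoters, against 1.74% of all. TATAAA occurred in 4 of 5 H1, 7 of 13 H2A, 7 of 15 H2B, 4 of 10 H3 and 8 of 12 H4 promoters. Over all promoters it occurred in 13.6%. AAACACA, known from H1 promoters, occurred in 4 of 5 H1 promoters and 7.18% of all. Windows of 12 members, Hist1h2bj among them, overlap that of another member, as in pairs of H2A and H2B genes that start back to back, and share any match that falls in the overlap. Promoters were available for 55 members, and not for Hist1h2bc, Hist1h3a, Hist1h3f, Hist2h2be, Hist2h4 and Hist3h2bb-ps.

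Few of the genes that make and finish histone mRNA passed the test. Of 22 listed genes for transcription and 3' end processing 20 were tested, and with 4OHT 2 were called higher and 1 lower, where the shares over all genes were 22.2% and 10.2%. Slbp, whose protein binds the stem-loop, had 95.9 and 77.2 RPKM in 4OHT, against 135 and 96.2 RPKM in EtOH, lower in both pairs and not called (log2 difference -0.40, limma adjusted p = 0.067). The called genes were Cpsf3, the nuclease that cuts the pre-mRNA (log2 difference 0.70, limma adjusted p = 0.0226), Lsm11, a part of the U7 particle (0.62, limma adjusted p = 0.0465), and Cstf2 (-0.96, limma adjusted p = 0.0275), a subunit of the cleavage stimulation factor. Between genotypes Casp8ap2, a histone locus body protein, was lower in Runx1 delta/delta (log2 difference -1.01, limma adjusted p = 0.0286) and Fip1l1, a poly(A) factor, higher (0.62, limma adjusted p = 0.0442). Of 21 histone chaperones and related genes 2 were called higher and 2 lower with 4OHT, the lower count being near the share over all genes. Npm1 and Set rose (log2 differences 0.79 and 1.02), while Asf1b and Daxx, chaperones of H3 with H4, fell (log2 differences -0.49 and -0.68). Between genotypes 3 of the 21 were called higher and 2 lower in Runx1 delta/delta, where the shares over all genes were 4.68% and 6.91%.

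Most of the separately placed histone genes did not pass the test either. With 4OHT 1 of the 8 tested was called, as higher, where 22.2% of all genes were called higher. H2afy, the gene of macroH2A1, had 113 and 122 RPKM in 4OHT, against 34.0 and 43.3 RPKM in EtOH (log2 difference 1.59, limma adjusted p = 0.00320). H2afv, a close relative of H2afz, had a log2 difference of -0.46 (limma adjusted p = 0.0864). H2afz had 368 and 330 RPKM in 4OHT, against 280 and 306 RPKM in EtOH, and H1f0, a linker histone of non-dividing cells, had 96.8 and 91.5 RPKM against 143 and 90.5 RPKM; neither was called. Between genotypes H2afv was higher in Runx1 delta/delta (log2 difference 0.91, limma adjusted p = 0.0353). H2afx, whose mRNA is known in both stem-loop and poly(A) forms, was listed at 0 in all libraries.

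Beside these results stand measures of the cells. The S phase list had 5 of 26 genes called with 4OHT, Ccne1, Rrm1, Pcna, Rrm2 and Cdt1, all as lower (median log2 difference -0.26), where 10.2% of all genes were called lower. Between genotypes 2 of 26 were called, both as higher in Runx1 delta/delta (median log2 difference 0.39), where 4.68% of all genes were. Of 15 red cell genes tested 14 were called lower with 4OHT, where 10.2% of all genes were. The summed level of the 15 was 5431 and 3815 RPKM in 4OHT, against 65432 and 35299 RPKM in EtOH. Globin rows held 0.920% and 0.664% of all summed RPKM in 4OHT, against 12.3% and 7.66% in EtOH. Between genotypes 5 of the 15 red cell genes were called higher and 1 lower in Runx1 delta/delta, where 4.68% and 6.91% of all genes were. Itgam, the gene of CD11b that the sort excluded, was at 0.358 RPKM or less. Of the 16 genes of the myeloid list with values 5 averaged at least 1 RPKM. Among these S100a8 had 29.7 and 9.39 RPKM in 4OHT, against 30.5 and 9.46 RPKM in EtOH. Ly6c2 had 7.48 and 1.52 RPKM, against 3.39 and 1.44 RPKM, and Fcgr3 had 13.1 and 3.09 RPKM, against 4.25 and 1.82 RPKM. The 16 myeloid genes in the table summed to 70.4 and 24.5 RPKM in 4OHT, against 52.1 and 23.0 RPKM in EtOH. Of 5 tested 1 was called higher with 4OHT and 0 lower, where 22.2% and 10.2% of all genes were. In Runx1 delta/delta 4 of the 5 were called higher (median log2 difference 1.30), where 4.68% of all genes were. The 10 progenitor and leukaemia markers summed to 211 and 211 RPKM in 4OHT, against 118 and 183 RPKM in EtOH. Most of each sum was Cd47 and Myb. Cd47 had 79.7 and 68.9 RPKM in 4OHT, against 83.9 and 90.9 RPKM in EtOH, and Myb had 99.2 and 84.5 RPKM, against 17.0 and 37.5 RPKM. Of the other markers on the list, Kit and Cd34 were at most 1.61 and 0.395 RPKM, and Cd33, Meis1 and Hoxa9 averaged under 1 RPKM. Flt3 had 16.8 and 39.7 RPKM in 4OHT, against 12.6 and 46.3 RPKM in EtOH. Il3ra had 10.3 and 8.17 RPKM, against 3.24 and 3.38 RPKM, and Ptprc had 2.38 and 5.90 RPKM, against 0.904 and 3.46 RPKM. Of 5 progenitor and leukaemia markers tested 3 were called higher with 4OHT, where 22.2% of all genes were. In Runx1 delta/delta 2 of the 5 were called lower, where 6.91% of all genes were. The 11 T, B and NK cell markers summed to 0.929 and 1.07 RPKM in 4OHT, against 2.68 and 0.673 RPKM in EtOH. The part of the S phase, red cell, myeloid and progenitor genes in the histone results was not tested.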

How the data were processed

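RNA-seq values for 4 mouse libraries came from 1 deposited table. It holds, per the file headers, an RPKM value per library from the authors. For each replicate number the authors also deposited Kal's Z-test between 4OHT and EtOH, as a fold change, its p-value and an FDR-corrected p-value. The submitters' processing notes name the build mm 9; the aligner, counting rule, annotation, strand and kit of each library (TruSeq or NEBNext) were not given in the sources used here.

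Whole reads, lengths and totals were recovered from the steps of the RPKM values: 17164 of 17213 genes above 0 (99.7%) gave whole reads within 0.02 reads. The libraries held 36.7 and 34.6 M mapped reads (4OHT and EtOH, Runx1 delta/delta) and 39.4 and 33.7 M (Runx1 delta/+). A gene's length is its GENCODE coding length where that gives whole reads and otherwise the smallest that does, so it is uncertain for genes with few reads. Counting intervals are exact at 95% and cover counting error only. In a gene of 312 bases, 3 reads are worth 0.244 to 0.285 RPKM.

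The main model was limma 3.58.1 (R 4.3.3) on log2(RPKM + 1), genes averaging 1 RPKM or more, treatment and genotype as terms, trended prior, two-sided tests, Benjamini-Hochberg over 9595 genes at 0.05. Residual degrees of freedom were 1, and prior degrees of freedom 4.37. Genotype equals the replicate number, and deviations of same-numbered libraries correlated at 0.664 over genes, a value that 2 pairs share by construction. Libraries correlated at 0.869 to 0.964, so none was a copy. P-values rest on how far the 4OHT response differed between the genotypes in these 4 samples, and on the prior. They measure no spread between leukaemias of the same genotype, and for genotype the 2 libraries of 1 genotype stand in as replicates.

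Values per library are given for the 4 highest members of each class, for members past the threshold, and for listed poly(A) and testis-type genes (2 of these, near 0, by their highest value); companion genes are drawn from the 4 with the smallest p of each list in either comparison, with Slbp, H2afx, H2afz, H3f3a, H3f3b and H1f0. Itgam, Kit, Cd34, Cd33, Meis1 and Hoxa9 are named outside that rule. Members and lists were chosen with earlier results of these data known. Stem-loops and shared windows came from GENCODE vM21 and promoters from RefSeq, through symbols matched for all 61 members. Alternatives were another pseudocount, filters, scalings, no term for the other factor and leaving out each library.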

Additional observations from a re-analysis of the deposited data

Results flagged for a closer look

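For 7 of the 21 tested genes the 4OHT library lay above the EtOH library in 1 genotype and below it in the other. With 1 pair per genotype the interaction leaves 0 degrees of freedom, so none of these differences was tested, and several of the single responses are within counting error. Given as the response in Runx1 delta/delta minus that in Runx1 delta/+ on the log2(RPKM + 1) scale, they were -1.71 for Hist2h4, 1.11 for Hist1h3c, -0.89 for Hist1h3g, -0.81 for Hist2h2bb, 0.51 for Hist1h4c, 0.26 for Hist1h2bc and 0.12 for Hist1h3a. For Hist2h4 the 4OHT level was 0.276 of the EtOH level in Runx1 delta/delta (95% counting interval 0.185 to 0.402) and 1.37 times it in Runx1 delta/+ (0.395 to 5.32), the second on 8 and 5 reads. For Hist1h3c it was 2.92 times the EtOH level in Runx1 delta/delta (1.39 to 6.68) and 0.618 of it in Runx1 delta/+ (0.278 to 1.33). For Hist1h3g the 2 levels were 0.896 (0.563 to 1.42) and 4.70 (1.60 to 18.8), the second on 22 and 4 reads. The Hist2h2bb levels were 0.382 (0.195 to 0.713) and 1.03 (0.543 to 1.96). The other 3 genes had responses of 0.24 and -0.02 (Hist1h2bc), 0.04 and -0.09 (Hist1h3a) and 0.49 and -0.02 (Hist1h4c).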

How the results depend on the processing

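The calls depended on fitting both factors together. With treatment fitted without genotype, limma called 0 clustered histone genes for 4OHT (3 at an unadjusted p under 0.05). With genotype fitted without treatment, limma called 0 for genotype (5 at an unadjusted p under 0.05). Over all genes these fits called 233 and 0 (2427 and 880). Leaving out any one of the 4 libraries, in fits that cannot hold the block and assume that a lone library varies like the others, gave 0 clustered histone genes in either comparison (0 to 4 for 4OHT and 2 to 4 for genotype at an unadjusted p under 0.05) and over all genes 39 (without EtOH replicate 1) to 251 for 4OHT and 0 for genotype (166 to 629). With no filter on low values, 5 of 61 clustered histone genes were called for 4OHT, all as lower. Over all genes 2283 of 17213 were called, 803 of them as lower. Of the 5, 2 were among the 6 called with the filter, and Hist1h2bj, Hist1h4d, Hist1h4i and Hist2h2be were not called (limma adjusted p = 0.0713 for Hist1h2bj). For genotype 0 were called (28 at an unadjusted p under 0.05), where 0 of all genes were called (3906). With a mean of at least 5 RPKM, 3 clustered histone genes remain to be tested. Of these 2 were called for 4OHT (2209 of 7276 over all genes) and 1 for genotype (646 over all genes). With median-ratio scaling 9 and 8 were called (3107 over all genes for 4OHT and 1794 for genotype). Scaling moved the background: the median log2 difference of all genes for 4OHT was -0.04 with median-ratio scaling, against 0.16, where that of the clustered histone genes was -0.52, against -0.39, and 1441 genes were called higher and 1666 lower, against 2130 and 983. For genotype the split was 984 higher and 810 lower with median-ratio scaling and 312 and 1131 with globins left out, against 449 and 663, and the median of all genes was -0.16 with globins left out, against -0.03. With median-ratio scaling 2 members, against 4, had both 4OHT libraries above both EtOH libraries; the counts without overlap under other scalings were chosen after seeing the data. The causes were not tested.

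The sign of the log2 difference turned only where the gene was not called in that comparison, over the settings run. For 4OHT, Hist1h2bc turned to -0.069 with median-ratio scaling; over the leave-one-out fits it ranged from -0.16 to 0.38, Hist1h3a from -0.18 to 0.13, Hist1h3g from -0.39 to 1.06, Hist1h4b from -1.41 to 0.47, Hist1h4c from -0.35 to 0.82 and Hist2h4 from -2.19 to 0.79. For genotype, Hist1h2bj turned to -0.060 and Hist3h2ba to -0.064 with globins left out, and Hist3h2ba to -0.020 with a pseudocount of 0.1. Over the leave-one-out fits for genotype Hist1h1a ranged from -0.064 to 0.30, Hist1h1c from -0.47 to 0.051, Hist1h2bb from -0.036 to 0.47, Hist1h2bj from -0.38 to 0.47, Hist1h3b from -0.34 to 0.94, Hist1h3c from -0.0069 to 0.55, Hist2h2bb from -0.28 to 0.51, Hist2h2be from -0.61 to 0.14, Hist3h2a from -0.24 to 0.57 and Hist3h2ba from -0.34 to 0.36. Depth limits the low members: 31 of the 61 had under 50 reads in all.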
